A study of Mus musculus with 3 samples.

Results

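The type I interferon response genes described here are 40 genes that cells switch on after interferon binds its receptor. They were taken by their symbols from the gene names of the count matrices, and all 40 of 40 were found among 55401 listed genes. The rule used no measured value. The samples were CD45+ (CD45.2 antibody) live cells sorted from tumours of mice aged 4, 12 and 20 months that had received 500000 YUMM1.7 cells under the skin 18 days before. YUMM1.7 is a mouse melanoma line carrying an activated Braf, and no group without a tumour was analysed here. The labels give 7 mice per age and 1 single-cell library per age, and they do not say whether the cells of the mice were pooled. They give no strain or sex. The sample titles name melanoma Cd45 cells, and CD45 is a marker of leukocytes. Melanoma markers summed to 9.77 CPM or less in CD8 T-like and NK-like cells and 48.9 CPM or less in monocyte-like cells. These classes were named from leukocyte markers, so the sums do not show what the sort kept. Fibroblast-like cells (50, 31 and 46 at 4, 12 and 20 months) were also present. Every mouse carried the tumour, so the 4-month library is the reference for age and not an interferon-free control.

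Type I interferons bind a receptor made of Ifnar1 and Ifnar2, whose kinases Jak1 and Tyk2 activate the complex ISGF3. This complex contains Stat2 and Irf9 and binds the interferon-stimulated response element in the promoters of the response genes. The products sense viral nucleic acid, block translation or virus release, or feed back on the pathway, and in tumours the response is best known in myeloid and dendritic cells.

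The response element was looked for in the letters upstream of the genes, because it is the feature by which ISGF3 recognises them. Of the 40 members, 31 had promoter windows in the RefSeq table of build GRCm38.p6, which run from 250 bases before to 50 after a start site. The core GAAANNGAAA, on either strand and with overlaps allowed, was present in a window of 17 of the 31 (54.8%), against 1079 of 27025 genes (3.99%). On the strand of the gene alone it was present in 8 of 31 (25.8%), against 2.06% of genes. The members with the core included Stat2, Isg15, Ifih1, Ddx58, Eif2ak2, Ifit1, Ifit3, Ifit3b, Ifit1bl1, Oas1a, Oas3, Rsad2, Bst2, Slfn5, Slfn8, Trim30a and Phf11b. The stretches below belong to members on which the results turn: the 2 with most counts that have a core (Isg15, Ifit3), the near-identical neighbour Ifit3b, Ifit1 beside them, the member that differed most between monocyte-like and macrophage-like cells (Rsad2), and a member highest in plasmacytoid dendritic-like cells (Bst2). Each is 80 bases in the direction of the gene, with the core or its reverse complement in capitals.
Isg15 chr4:156200869-156200948, minus strand: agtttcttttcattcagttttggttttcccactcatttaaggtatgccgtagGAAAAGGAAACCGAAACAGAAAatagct
Ifit1 chr19:34640759-34640838, plus strand: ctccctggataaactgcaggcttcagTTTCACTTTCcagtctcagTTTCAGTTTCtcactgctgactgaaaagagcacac
Ifit3 chr19:34583355-34583434, plus strand: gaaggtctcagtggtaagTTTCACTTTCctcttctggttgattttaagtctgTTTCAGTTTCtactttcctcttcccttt
Ifit3b chr19:34607751-34607830, plus strand: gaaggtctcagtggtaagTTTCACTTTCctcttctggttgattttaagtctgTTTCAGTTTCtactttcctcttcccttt
Rsad2 chr12:26456528-26456607, minus strand: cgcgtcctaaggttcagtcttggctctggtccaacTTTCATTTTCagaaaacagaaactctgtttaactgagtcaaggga
Bst2 chr8:71537555-71537634, minus strand: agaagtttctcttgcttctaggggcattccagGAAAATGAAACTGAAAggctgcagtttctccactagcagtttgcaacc
The Isg15 stretch holds 3 overlapping cores, those of Ifit1, Ifit3, Ifit3b and Bst2 hold 2 each, and that of Rsad2 holds 1. The stretches of Ifit3 and Ifit3b have the same letters. A match describes these letters and does not show that a factor binds there. The members with a window but no core in it, among them Irf7, Ifit2 and Isg20, may carry the core outside the window.

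The matrices held 14393, 14653 and 14684 cells at 4, 12 and 20 months, with 110371225, 127850782 and 119873564 counts in all, and 13528, 13774 and 13803 cells were retained. Cells were clustered with the 40 members and the other interferon lists left out, so that no member decided in which class a cell fell. Classes carry the ending -like because they were named from markers. The large classes were monocyte-like (2602, 1403 and 1770 cells at 4, 12 and 20 months), macrophage-like (2626, 2782 and 3301), CD8 T-like (3124, 3893 and 3414) and NK-like (2495, 2264 and 1744). Clusters M3 (macrophage-like), T12 (CD8 T-like) and T15 (T cells left unnamed) took 97.7%, 96.8% and 99.0% of their cells from the 12-month library. T12 held 1865 of the 3893 CD8 T-like cells there. Cbfa2t2 and Gm47854, 2 genes specific to a library, were among the leading genes of both M3 and T12. Each pair of libraries shared 2 to 4 cell barcodes. The unit throughout is CPM, the counts of a gene over all counts of that class in that library, scaled so that 10000 CPM would be 1% of the counts, and intervals are exact 95% intervals that cover counting error only. Because the kit reads the 3' end, a level is a count of transcripts and is not divided by length.

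Levels were compared over the 10 named classes with at least 50 cells in every library. Among these, monocyte-like cells carried the highest summed level of the 40 genes in every library. Their summed level was 25405, 19983 and 19887 CPM at 4, 12 and 20 months, or 2.54%, 1.998% and 1.99% of all their counts. Type 2 dendritic-like cells came next, at 18144, 14759 and 12155 CPM, with macrophage-like cells at 16505, 14106 and 13532 CPM. Regulatory T-like cells held 13242, 10923 and 10850.5 CPM, above the 10747, 9091 and 9208 CPM of CD8 T-like cells. NK-like cells stood lower, at 8059, 7172 and 6548 CPM, and mature dendritic-like cells lowest on average, at 7054, 6344 and 6452 CPM. Type 1 dendritic-like cells (11517, 9631 and 9222 CPM), plasmacytoid dendritic-like cells (9571, 8523 and 8129.8 CPM) and gamma-delta T-like cells (8426, 8436 and 7304 CPM) lay between. Over the 3 libraries the means ± SD ran from 21758 ± 3159 CPM in monocyte-like to 6617 ± 382 CPM in mature dendritic-like cells (n = 3 libraries, each of another age). The ranges over libraries of neighbours in this order of 10 classes overlapped, except between monocyte-like and type 2 dendritic-like cells and between macrophage-like and regulatory T-like cells.

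**Figure D1:**
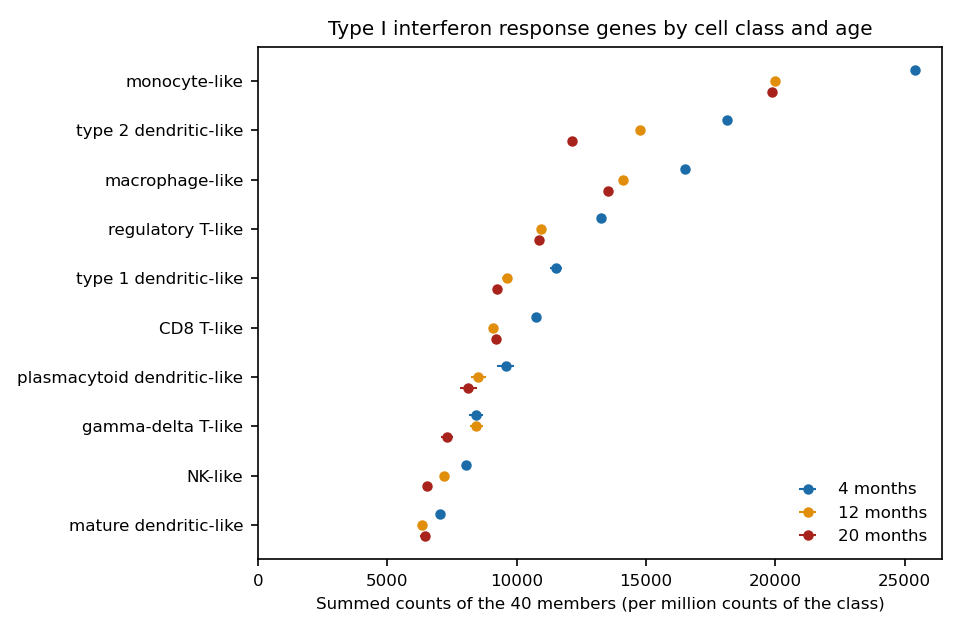
Summed level of the 40 type I interferon response genes (CPM) in the 10 named classes with at least 50 cells in every library, with 1 point per library (4, 12 and 20 months) and exact 95% intervals that cover counting error only. Monocyte-like cells lie at 19887 to 25405 CPM, above the other classes plotted, and the 4-month point is the highest in each class plotted except gamma-delta T-like cells.

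By single genes, 33 of the 40 members had their highest mean level in monocyte-like cells, a class that was highest for 7.90% of the 9450 genes ordered in the same way. Regulatory T-like cells were highest for 3 members (Irf9, Isg20, Xaf1), plasmacytoid dendritic-like cells for 3 (Bst2, Ifi44, Trim30a) and macrophage-like cells for 1 (Slfn1). For 23 members, 19 of them highest in monocyte-like cells, the libraries of the highest class did not overlap those of the class below it. That count was not made over all genes, so it is not read as a trait of the members. The mean of the highest class over that of the lowest ran from 1.76-fold for Ifi35 to 17.2-fold for Slfn4, with a median of 4.76-fold. The member with fewest counts, Oas2, still had 4106 counts in the 12-month library, so every member was measured in every library.

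Free RNA from lysed cells sets a floor for such levels, and the markers of other cells measure it. In CD8 T-like cells, 7 macrophage markers stood at a median of 5.00%, 6.68% and 8.53% of their macrophage-like level at 4, 12 and 20 months. The 40 members stood there at a median of 71.1%, 66.5% and 74.4% of their macrophage-like level, and 39 of the 40 lay above the highest marker in each library. The exception was Slfn4, a myeloid Schlafen gene, at 57.9, 36.4 and 43.1 CPM in CD8 T-like cells against 397, 265 and 248 CPM in macrophage-like cells. Slfn4 also stood at 57.7, 33.0 and 33.1 CPM in NK-like cells, below the highest marker there. In CD8 T-like cells it was at 14.6%, 13.8% and 17.4% of its macrophage-like level, and in NK-like cells at 14.5%, 12.5% and 13.4%. These shares lay above the median marker in each library, and whether they are background was not tested. Only macrophage-like cells were taken as the source for these lymphoid classes. Free RNA of monocyte-like cells was not assessed, so members much higher there, such as Rsad2, Ifi204 and Oasl1, may also hold background. The count above the highest marker was not made over all genes.

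The transcription factors that carry the signal differed in level. Irf7, which amplifies interferon production and the response, stood at 1831, 1421 and 1319 CPM in monocyte-like cells and at 1638, 1408 and 1268 CPM in macrophage-like cells at 4, 12 and 20 months. The 2 classes overlapped for Irf7, and both stood above CD8 T-like cells (716, 621 and 535 CPM) and NK-like cells (675, 605 and 500.2 CPM) in every library. Stat2, a subunit of ISGF3, held 271.5, 227 and 226 CPM in monocyte-like and 75.2, 59.6 and 71.2 CPM in CD8 T-like cells. Irf9, the DNA-binding subunit of ISGF3, went the other way: it stood at 168, 153 and 152 CPM in regulatory T-like cells and at 110.5, 113 and 105 CPM in monocyte-like cells, without overlap.

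The Isg15 system couples a small ubiquitin-like protein to other proteins. Isg15 itself had the most counts of all members in monocyte-like cells, at 2686, 2055 and 2066 CPM, and in macrophage-like cells, at 1774, 1437 and 1360.1 CPM. Its level in regulatory T-like cells was 1334, 1169 and 1152 CPM, above the 915.5, 796 and 833 CPM of CD8 T-like cells in every library. Usp18, which removes Isg15 and restrains the receptor, varied less between classes: 572.5, 463.5 and 430.04 CPM in monocyte-like and 441.5, 392 and 320 CPM in NK-like cells, whose ranges overlapped. Herc6, the Isg15 ligase of mice, stood at 201, 164 and 159 CPM in monocyte-like and 99.0, 81.0 and 71.1 CPM in NK-like cells, without overlap.

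Most sensors of nucleic acid differed widely between monocyte-like and lymphoid cells. Ifi204, a DNA-binding sensor, reached 1262, 1012 and 995 CPM in monocyte-like and 692, 593 and 607 CPM in macrophage-like cells, but 162, 115 and 141 CPM in CD8 T-like cells. Its lowest class was regulatory T-like, at 122, 81.8 and 88.6 CPM. Ifih1 (the RNA sensor MDA5) was also highest in monocyte-like cells but lowest in NK-like cells, with 428, 321 and 329.7 CPM in the former and 65.5, 50.4 and 50.9 CPM in the latter. Ddx58 (RIG-I) stood at 176, 146 and 154 CPM in monocyte-like and 74.1, 65.8 and 69.2 CPM in CD8 T-like cells. Zbp1, which senses nucleic acid in the Z form, was more even, with 680.004, 623 and 568.5 CPM in monocyte-like and 464, 445 and 418 CPM in CD8 T-like cells. Eif2ak2 (PKR), a kinase that stops translation when it binds double-stranded RNA, held 169, 137 and 141 CPM in monocyte-like and 64.8, 45.4 and 48.5 CPM in CD8 T-like cells. For each of these genes the monocyte-like libraries lay above those of the lymphoid class named beside them without overlap. Regulatory T-like cells, at 589, 556 and 471 CPM of Zbp1, did overlap the monocyte-like libraries.

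The Ifit genes, whose proteins bind foreign RNA and block its translation, were also highest in monocyte-like cells. So were the Oas genes, some of which encode enzymes that activate RNase L. Ifit3 stood at 1825, 1335 and 1274 CPM in monocyte-like, 1119 (4 months), 956 and 922 CPM in macrophage-like and 798, 651.5 and 657 CPM in CD8 T-like cells, 3 ranges that did not overlap. Ifit1 differed from it: its second class was regulatory T-like, at 379, 278 and 263 CPM, ahead of macrophage-like cells at 222, 212 and 195 CPM. Oasl1, which limits translation of Irf7, held 570.2, 421 and 411 CPM in monocyte-like and 82.0, 69.3 and 59.3 CPM in CD8 T-like cells. Several members share letters of their 3' end with transcripts of other genes, so their counts may be split. Of the 31-base words in the last 500 bases, 70% of those of Oas1a occur in at least 1 other gene. The share was 55.7% for Phf11b, 29.6% for Ifit1bl1, 28.1% for Oas3, 24.0% for Ifit3 and 18.5% for Ifi204. The genes sharing most words were, in that order, Oas1g, Phf11c, Ifit1bl2, Gm38386, Ifit3b and Ifi203-ps, wherever in their transcripts the words lay.

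Effectors at membranes and on nucleotides were unlike in their spread between classes, from 4.01-fold for Bst2 to 13.6-fold for Cmpk2 (highest mean over lowest). Rsad2 (viperin), a radical-SAM enzyme that makes a chain-terminating nucleotide, reached 1368, 1011 and 1013 CPM in monocyte-like cells against 341, 311 and 295 CPM in macrophage-like and 168, 133 and 153 CPM in CD8 T-like cells. Its neighbour and partner Cmpk2, a nucleotide kinase, went from 327, 217 and 234 CPM in monocyte-like to 53.7, 46.6 and 38.7 CPM in NK-like cells. Both formed the same order of classes: monocyte-like, type 2 dendritic-like, and mature dendritic-like lowest. Bst2 (tetherin), which holds budding virus at the membrane, was instead highest in plasmacytoid dendritic-like cells, at 924, 1107 and 1103 CPM, with 489, 452.5 and 441 CPM in monocyte-like cells. Isg20, an RNA exonuclease, reached 1119.5, 958 and 981 CPM in regulatory T-like and 979, 686 and 646 CPM in monocyte-like cells, and these ranges overlapped. Samhd1, which depletes deoxynucleotides, had 1226, 1062 and 1008 CPM in monocyte-like and 271, 258 and 250.6 CPM in NK-like cells, without overlap.

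**Figure D2:**
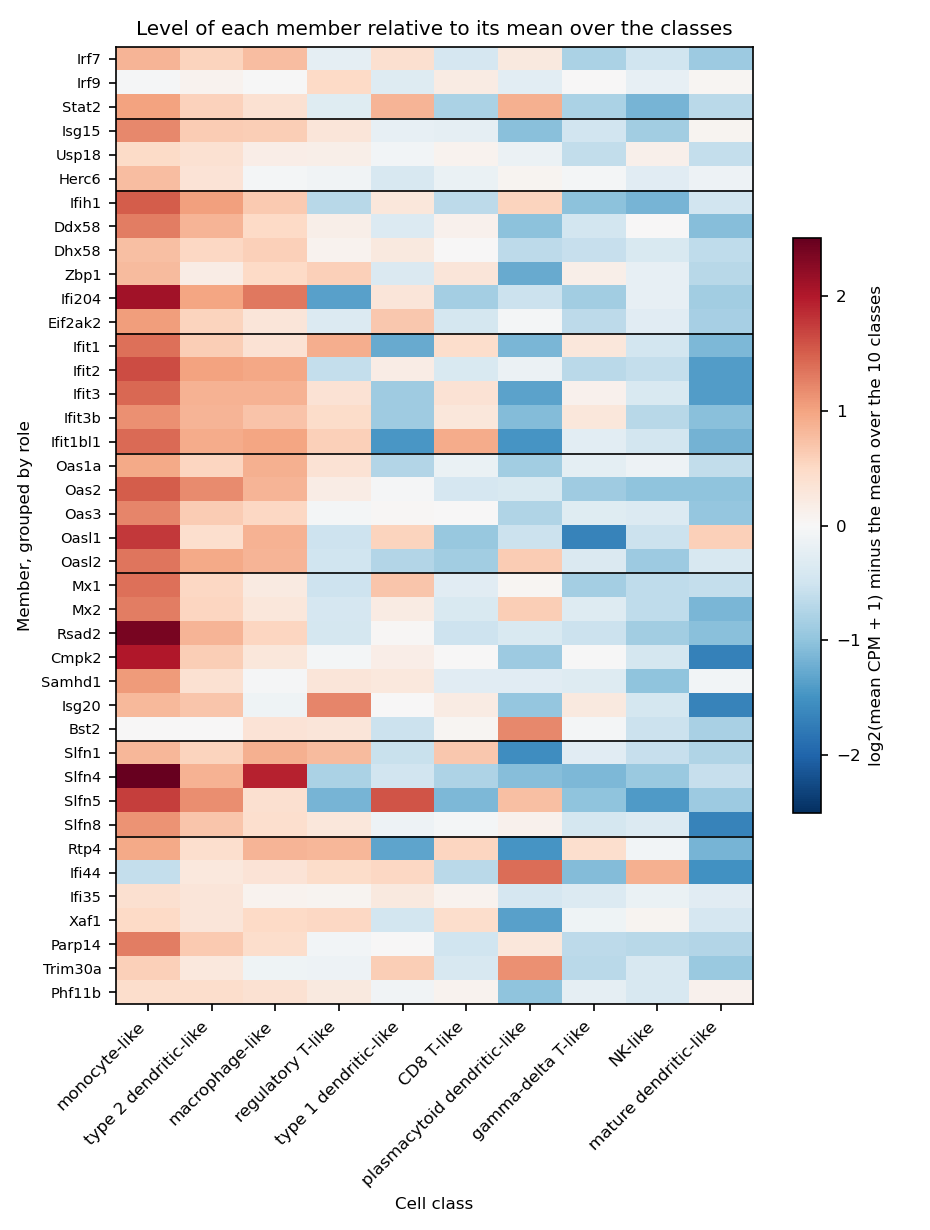
Level of each of the 40 members in each class relative to its mean over the 10 classes (colour, log2 of the mean CPM over the libraries plus 1, cut at 2.5 in either direction), with lines between the roles. Most members are highest in monocyte-like cells, whereas Bst2, Ifi44 and Trim30a are highest in plasmacytoid dendritic-like cells and Irf9, Isg20 and Xaf1 in regulatory T-like cells.

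Pairs of classes were then tested within libraries. Counts were summed per class and library and fitted across all genes with edgeR's quasi-likelihood test, with the library as a term, so the 3 libraries were the replicates and p-values were adjusted by Benjamini and Hochberg over all genes tested. A member passed at an adjusted p under 0.05. The libraries differ in age, so the test is of the mean class difference over the 3 ages. A pass does not show that the difference held at each age.

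In monocyte-like over macrophage-like cells, 35 of 40 members were higher and 2 lower, where 21.4% of 19265 genes were higher and 21.9% lower. The median log2 difference of the members was 0.72, against -0.00087 over all genes. Rsad2 had the largest difference (log2 1.90 ± 0.059, SE; adjusted p = 4.69e-07), followed by Cmpk2 (1.79 ± 0.064; adjusted p = 2.75e-07), Slfn5 (1.39), the antiviral GTPase Mx1 (1.21) and Samhd1 (1.17). The 2 lower members were Ifi44 (-0.88 ± 0.055; adjusted p = 8.57e-07), whose function is little known, and Bst2 (-0.25; 1 lower member was left without the 20-month library). Slfn1, Irf9 and Xaf1 did not pass.

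In macrophage-like over CD8 T-like cells, 33 of 40 members were higher and 2 lower, against 28.4% and 25.1% of 20444 genes. The median member differed by log2 0.56. The largest differences were those of Slfn4 (2.77 ± 0.075; adjusted p = 2.31e-08), Ifi204 (2.24), Oasl1 (1.88), Oasl2 (1.79) and Slfn5 (1.59). Isg20 (-0.27; adjusted p = 0.0035) and Irf9 (-0.17; adjusted p = 0.037) were lower, and leaving out any 1 library left 1 lower member. Ifit1 did not pass, at a log2 difference of -0.040.

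In NK-like over CD8 T-like cells the balance was turned: 25 of 40 members were lower and 5 higher, against 13.5% and 16.6% of 18975 genes, with a median of -0.27. The lower members were led by Ifit1bl1 (-1.30 ± 0.057; adjusted p = 1.99e-06), Slfn1 (-1.17), a Schlafen gene tied to T cell quiescence, Ifit3b (-0.89), Ifit1 (-0.81) and Ifit3 (-0.65). The higher members were Ifi44 (1.67 ± 0.096; adjusted p = 0.00033), Ifi204 (0.74), Oasl1 (0.50), Eif2ak2 (0.23) and Oas1a (0.13). Without the 4-month or the 12-month library, 3 members were higher, against 2527 of 19705 and 2069 of 19142 genes. Ifi44 stood at 162, 143 and 111.5 CPM in NK-like and 43.8, 51.2 and 42.8 CPM in CD8 T-like cells.

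Regulatory T-like cells, which restrain other T cells, exceeded CD8 T-like cells for 17 of 40 members and were lower for 4, against 14.3% and 11.6% of 17243 genes, with a median of 0.084. The higher members were led by Ifi44 (1.11 ± 0.070; adjusted p = 4.64e-07), Isg20 (0.96), Oas2 (0.57), Samhd1 (0.52) and Oas1a (0.49). The lower members were Ifi204 (-0.57), Ifit1bl1 (-0.38), Mx1 (-0.31) and Ifit2 (-0.28). Without the 12-month library, 11 members were higher and 2 lower, against 1354 and 1073 of 17425 genes.

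Dendritic cells did not form a single level. Type 2 dendritic-like over macrophage-like cells gave 14 members higher and 8 lower of 40, against 16.7% and 13.4% of 17316 genes, with a median of 0.082. Isg20 (0.76 ± 0.048; adjusted p = 1.54e-07), Slfn5 (0.72), Samhd1 (0.39), Herc6 (0.35) and Trim30a (0.33) were higher. Slfn4 (-1.10), Rtp4 (-0.46) and Oas1a (-0.38) were lower, while Oasl1 (-0.50; adjusted p = 0.092) and Ifi204 (-0.39; adjusted p = 0.095) did not pass. The count of higher members was 4 of 40 without the 12-month library, against 1857 of 17535 genes. It was 6 without the 4-month library, against 2158 of 18571 genes. Over the other settings tried it moved from 3 without the library term, against 2328 of 17316 genes, to 24. That highest count came with the members kept in the clustering, against 2816 of 17133 genes. The higher members thus did not exceed the share of all genes at each setting.

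In mature dendritic-like over type 2 dendritic-like cells, 35 of 40 members were lower and 0 higher, against 22.7% and 21.5% of 11636 genes, with a median of -1.17. At an unadjusted p under 0.05, 0 members were higher as well, and DESeq2 called 1. Ifit2 (-2.20 ± 0.12; adjusted p = 1.37e-10), Slfn8 (-2.17), Cmpk2 (-2.14), Isg20 (-2.13) and Ifit3 (-2.00) led the lower ones. Isg15, Irf9 (0.21), Oasl1 (0.45), Herc6 and Phf11b did not pass.

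In plasmacytoid dendritic-like over type 2 dendritic-like cells, 35 of 40 members were lower and 3 higher, against 24.1% and 22.2% of 11186 genes, with a median of -1.39. Plasmacytoid dendritic cells are known as strong producers of type I interferon. The lower members were led by Ifit1bl1 (-2.65 ± 0.19; adjusted p = 7.70e-15), Ifit3 (-2.43), Slfn1 (-2.35), Slfn4 (-2.22) and Ifit3b (-2.19). The higher ones were Bst2 (0.95 ± 0.10; adjusted p = 2.69e-10), Ifi44 (0.92) and Trim30a (0.65). These classes had few cells: 62, 58 and 52 plasmacytoid dendritic-like cells in the 3 libraries.

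Age was described next. Each age had 1 library, so a ratio to the 4-month library compares libraries, has no replicate check and carries no test. A member was counted as lower or higher where the 95% interval of its log2 ratio, from the exact binomial interval of the 2 counts, lay wholly below or above 0. That interval covers counting error only, and at these depths it also called many of all genes, whose shares stand beside the member counts of each class. The ratios of 12 and of 20 months share the 4-month library. Age, the mice and the preparation of each library cannot be told apart.

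In monocyte-like cells the members were lower in both older libraries. The summed level was lower by log2 -0.35 at 12 months and -0.35 at 20 months, a 1.27-fold and a 1.28-fold difference. At 12 months 39 of 40 members were lower and 0 higher, against 17.6% and 27.2% of 6238 genes. At 20 months 39 were lower and 0 higher, against 22.1% and 25.6% of 6203 genes. The median member stood at -0.31 and -0.30, while the median of all genes stood at 0.038 and 0.021. The member outside both counts was Irf9, at 0.032 and -0.073 with intervals across 0. Differences of 1.5-fold or more were rare: 1 member, Cmpk2 (-0.59), at 12 months against 0.898% of genes, and 1, Isg20 (-0.60), at 20 months against 1.08%. After Isg20 the lowest ratios at 20 months were those of Ifit3b (-0.58), Ifit3 (-0.52), Slfn4 (-0.52) and Cmpk2 (-0.49).

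Macrophage-like cells showed the same direction with smaller ratios. The summed log2 ratio was -0.23 at 12 and -0.29 at 20 months. At 12 months 39 of 40 members were lower and 0 higher, against 28.4% and 20.7% of 6320 genes, and at 20 months 35 were lower and 0 higher, against 34.6% and 22.7% of 6322 genes. The median member stood at -0.20 and -0.25, with all genes at -0.031 and -0.042. Slfn4 had the lowest ratio, -0.59 and -0.68, and was the 1 member past 1.5-fold at each age, against 0.617% and 1.11% of genes. It was followed at 20 months by Isg20 (-0.51), Slfn1 (-0.47), Usp18 (-0.42) and Ifit2 (-0.42). Bst2 stood at 586, 553 and 591 CPM, a log2 ratio of 0.012 at 20 months with an interval across 0. The 4 macrophage-like clusters large enough to compare stood nearer 0 at 20 months than the sum did, from -0.21 to -0.087 with a median of -0.15. The cells were spread over these clusters differently at each age: cluster M2, with a high level, held 1317, 207 and 872 cells at 4, 12 and 20 months, and cluster M7, with a low level, 373, 201 and 1169.

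In CD8 T-like cells the summed ratio was -0.24 at 12 and -0.22 at 20 months. At 12 months 36 of 40 members were lower and 1 higher, against 24.3% and 23% of 5989 genes. Past 1.5-fold was 1 member, against 0.785% of genes: Slfn4, which lay below the highest macrophage marker in these cells. At 20 months 31 members were lower and 3 higher, against 38.9% and 21.7% of 6060 genes, and 0 were past 1.5-fold, against 0.957%. The lowest ratios at 20 months were those of Cmpk2 (-0.48), Oasl1 (-0.47), Slfn4 (-0.42), Irf7 (-0.42) and Eif2ak2 (-0.42). The highest were those of Oas2 (0.18), Ifit1bl1 (0.11), Parp14 (0.084), Oas3 (0.039) and Mx2 (0.032), of which the last 2 had intervals across 0. The size of the summed ratio moved with the cells included: it was -0.48 at 12 months without cluster T12, and -0.12 at 12 and -0.11 at 20 months over cells with 5000 counts or more.

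In NK-like cells 39 members reached 20 CPM in a library compared, all but Oas2. The summed ratio was -0.17 at 12 and -0.30 at 20 months. At 12 months 31 members were lower and 1 higher, against 23.9% and 17.8% of 5824 genes, and at 20 months 34 were lower and 0 higher, against 32.5% and 16.8% of 5795 genes. Past 1.5-fold at 12 months was 1 member (Slfn4, below the highest macrophage marker in these cells), against 0.618% of genes. At 20 months 2 were past it (Slfn4, -0.80, and Eif2ak2, -0.60), against 0.466%. Ifi44 (-0.54), Oasl1 (-0.52) and Herc6 (-0.48) followed at 20 months. Cluster 12, which held 2142, 1872 and 1438 of the NK-like cells, stood at -0.34 at 20 months, and the 3 small clusters compared stood between -0.10 and -0.011.

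**Figure D3:**
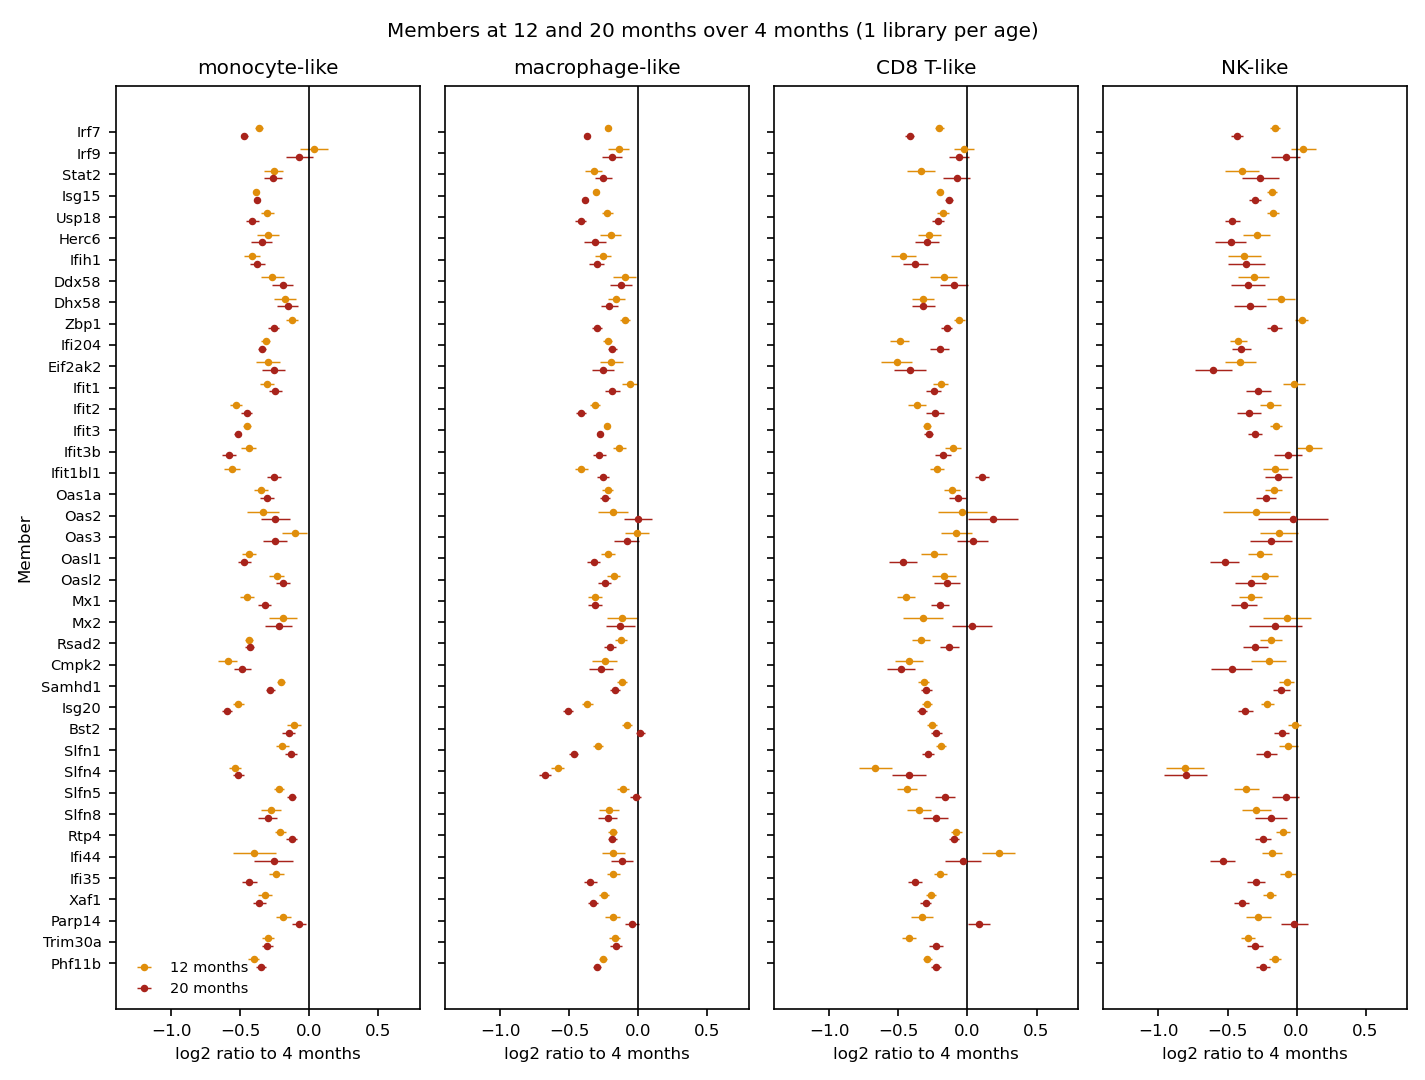
Log2 ratio of each member to the 4-month library at 12 and 20 months in monocyte-like, macrophage-like, CD8 T-like and NK-like cells, with 1 point per member and age, horizontal 95% intervals that cover counting error only, and a vertical line at 0. Most points lie left of 0 in each class, and the member medians run from -0.31 to -0.18.

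Smaller classes differed in their ratios. In type 2 dendritic-like cells the summed ratio was -0.30 at 12 and -0.58 at 20 months, the lowest at 20 months of the 10 named classes with at least 50 cells in every library. At 12 months 35 of 40 members were lower and 0 higher, against 11.4% and 13% of 6648 genes, and 1 was past 1.5-fold, against 1.97%. At 20 months 38 were lower and 0 higher, against 15.6% and 15.5% of 6665 genes, and 14 were past 1.5-fold, against 4.05%. Slfn4 (-1.04), Cmpk2 (-0.97), Oasl1 (-0.93), Ifit2 (-0.84) and Irf7 (-0.76) had the lowest ratios there. Irf7 stood at 1595, 1181 and 941 CPM in these cells, with Isg15 at 1911, 1549 and 1192 CPM. The 4 type 2 dendritic-like clusters large enough to compare stood between -0.52 and -0.21 at 20 months, each nearer 0 than the sum. The cells were spread over these clusters differently at each age. Clusters D0 and D1, with high levels, held 83, 51 and 50 and 119, 80 and 56 cells at 4, 12 and 20 months. Cluster D9, with a lower level, held 90, 68 and 157.

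In regulatory T-like cells the summed ratio was -0.28 at 12 and -0.29 at 20 months. At 12 months 36 of 40 members were lower and 1 higher, against 17.6% and 13.8% of 6378 genes, and 2 were past 1.5-fold, against 2.41%. At 20 months 33 were lower and 0 higher, against 18% and 13.6% of 6426 genes, and 1 was past 1.5-fold, against 2.79%. The higher member at 12 months was Ifi44, at 92.6, 112 and 104 CPM, a log2 ratio of 0.27. Isg20, the member for which these cells stood highest, went from 1119.5 CPM at 4 months to 958 and 981 CPM.

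The rarest of the 10 classes stood nearer 0 or had wide intervals. In gamma-delta T-like cells the summed ratio was 0.0017 at 12 months (95% interval -0.061 to 0.065) and -0.21 at 20 months. Mature dendritic-like cells stood at -0.15 and -0.13, plasmacytoid dendritic-like cells at -0.17 and -0.24, and type 1 dendritic-like cells at -0.26 and -0.32. T cells left unnamed are outside the 10 classes and not rare, with 974, 1874 and 2114 cells at 4, 12 and 20 months. They stood at -0.31 and -0.25, with a summed level of 10395, 8387 and 8734 CPM. Their clusters T4 and T6 scored best as CD8 T (0.819 and 0.638) but had markers of another class among their leading genes. The CD8 T-like class leaves these cells out.

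By role, the summed ratio at 20 months in monocyte-like cells ran from -0.26 for the Schlafen genes to -0.45 for the Ifit genes. In macrophage-like cells it ran from -0.21 for the membrane and nucleotide effectors to -0.39 for the Isg15 system. In CD8 T-like cells the Oas genes stood nearest 0 (-0.12) and the transcription factors farthest (-0.33). In NK-like cells the Isg15 system and the transcription factors were lowest (-0.38 and -0.37). The 3 genes of the Isg15 system (Isg15, Usp18, Herc6) were lower at both ages in all 4 classes, as were 25 members in all, against 3.28% of the 4543 genes tested in the 4 classes.

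The clusters show where in the myeloid cells the members were most abundant. Cluster M6, monocyte-like, had the highest level of the monocyte-like and macrophage-like clusters, at 30794, 24180.2 and 23452 CPM, and was led by Tgm2, Slpi, Chil3 and Arg1, with Slfn4, a member, among its 10 leading genes. Cluster M4, monocyte-like and led by Thbs1 and Osm, stood at 25931, 20693 and 19441 CPM. Cluster M5, led by F13a1, Hp and Fn1, genes of classical monocytes, stood at 21798, 15693 and 16239 CPM. Cluster M1, the smallest monocyte-like one, led by Mmp12, Acod1 and Cxcl9, stood at 18296, 16502 and 17635 CPM, with log2 ratios of -0.15 and -0.053 nearer 0 than those of the other 3. Single members divided these clusters: Rsad2 was highest in M5, at 1669, 1117 and 1224 CPM, where Irf7 was low, at 1035, 753 and 692 CPM, while M6 held 2474, 1819 and 1628 CPM of Irf7.

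The macrophage-like clusters M7 and M8 were the lowest. M7, led by the complement genes C1qa, C1qb and C1qc and by Apoe, stood at 13300.4, 11903 and 12145 CPM, and M8, led by Pf4 and Ccl8, at 12739 (4 months), 11149.8 and 11347 CPM. M2, led by Slamf9, Ecm1 and Cfb, stood higher, at 18129, 17279 and 17071 CPM, above M5 at both older ages and above M1 at 12 months. M0, M2 and M3 were named macrophage-like by their summed markers, although none of those markers was among their 10 leading genes. Of 27 clusters of all classes with at least 50 cells in each library, 24 were lower at 12 months and 26 at 20 months by the interval, and 1 was higher at 12 months (T11, regulatory T-like, log2 0.063). The ratios ran from -0.47 to 0.063 at 12 months and from -0.52 to -0.011 at 20 months.

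**Figure D4:**
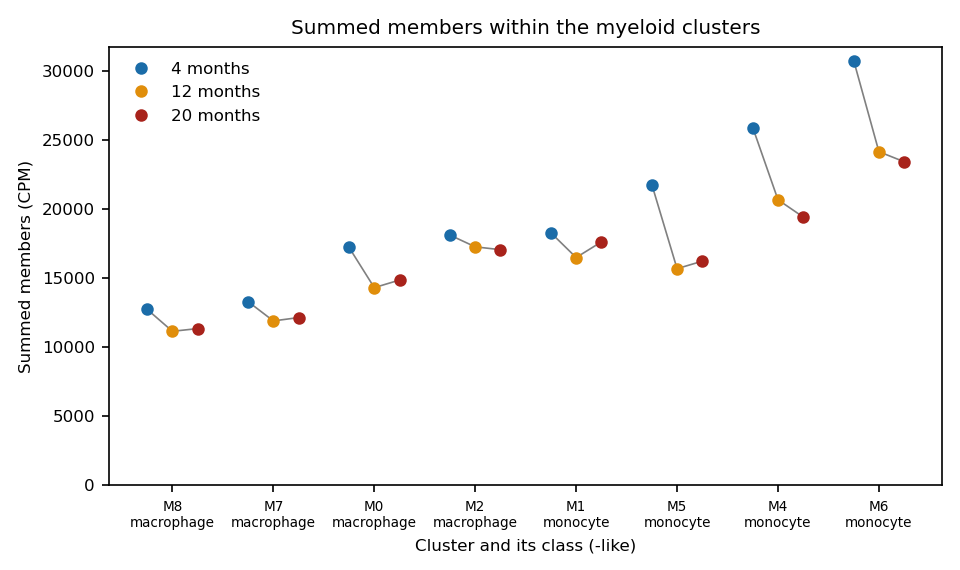
Summed level of the 40 members (CPM) in each monocyte-like and macrophage-like cluster with at least 50 cells in each library, with 1 point per library. M6 is the highest at each age (30794, 24180.2 and 23452 CPM) and M8 and M7 are the lowest.

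The share of a cell's counts that fell on the 40 genes varied widely among cells of a class. Its median was 2.53%, 1.91% and 1.85% in monocyte-like cells at 4, 12 and 20 months, with the 5th to 95th percentile from 0.651% to 4.69% at 4 months and from 0.575% to 3.87% at 20 months. In macrophage-like cells the median was 1.497%, 1.27% and 1.2003%. It was 1.03%, 0.853% and 0.825% in CD8 T-like and 0.725%, 0.618% and 0.535% in NK-like cells. The median cell of the monocyte-like class at 4 months had counts of 34 of the 40 members, and that of the NK-like class 24. With every cell thinned to 2000 counts, which left out 0 cells, the medians were 2.5%, 1.90% and 1.85% in monocyte-like and 0.750%, 0.650% and 0.550% in NK-like cells. The distributions of the 3 libraries overlapped throughout, and cells are not replicates of an age.

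**Figure D5:**
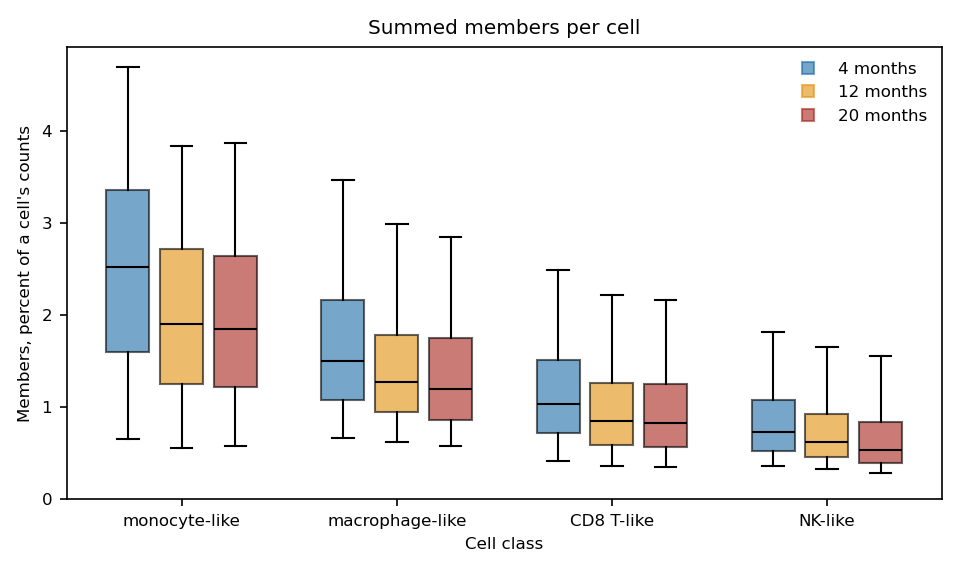
Share of each cell's counts (percent) on the 40 members, by class and library, with boxes from the 25th to the 75th percentile over cells, a line at the median and whiskers at the 5th and 95th. The median is highest in monocyte-like cells (2.53% at 4 months) and the 4-month median lies above the older ones in each of the 4 large classes.

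Other genes of the pathway were read from lists. Of 19 type I and III interferon ligands, 10 had any count, 70 counts in all, and 0 reached 20 CPM in a class. Ifnb1 had 10, 17 and 14 counts at 4, 12 and 20 months, of which 27 lay in macrophage-like and 9 in monocyte-like cells. In plasmacytoid dendritic-like cells there were 0 counts of any ligand among 1012532 counts, which allows a level of up to 2.96 CPM. Ligand transcripts are too few here for a comparison between ages.

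The receptor genes were read beside the members. In monocyte-like cells Ifnar1 and Ifnar2 stood at 61.2, 62.2 and 65.4 CPM and at 93.6, 104 and 100.2 CPM, with intervals of the 20-month ratios across 0. In CD8 T-like cells Ifnar1 stood at 59.7, 54.6 and 51.0 CPM, a log2 ratio of -0.23 at 20 months, and Ifnar2 at 41.4, 44.9 and 45.8 CPM, a ratio of 0.15, each with an interval clear of 0. Jak1, a kinase of the receptor, stood at 316, 255 and 264 CPM in NK-like cells. Between classes, Ifnar1 and Ifnar2 were higher in plasmacytoid dendritic-like than in type 2 dendritic-like cells, by log2 2.02 ± 0.15 (adjusted p = 1.26e-14) and 1.78 ± 0.13 (adjusted p = 1.04e-14), where 35 members were lower.

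A longer list of 75 further genes induced by type I interferon gave counts in the same direction. In monocyte-like cells 57 of 71 tested were lower and 5 higher at 12 months, and 58 lower and 9 higher at 20 months. The shares over all genes were 17.6% lower and 27.2% higher, then 22.1% and 25.6%. In macrophage-like cells 48 and then 53 of 71 were lower and 7 higher at each age, against 28.4% and 34.6% lower and 20.7% and 22.7% higher over all genes. Cxcl10, a chemokine gene of this list, was higher in monocyte-like than in macrophage-like cells by log2 1.78 ± 0.057 (adjusted p = 9.25e-07).

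Genes induced by interferon-gamma share part of their control with the members. Their list also held Ifng, the interferon-gamma gene itself, and its receptor genes Ifngr1 and Ifngr2. Ifng was among the genes tested, at log2 ratios of 0.30 at 12 and -0.45 at 20 months in macrophage-like cells. In monocyte-like cells its ratios were 0.40 and -0.53. Of 19 tested in macrophage-like cells, 8 were lower and 4 higher at 12 months and 17 lower and 2 higher at 20 months. Their medians were -0.032 and -0.22. Of all genes in these cells 28.4% and 34.6% were lower and 20.7% and 22.7% higher. In monocyte-like cells 13 of 19 were lower at each age and 4 and then 2 higher, with medians of -0.29 and -0.26. The shares over all genes were 17.6% and 22.1% lower and 27.2% and 25.6% higher. The negative regulators Socs1, Socs3, Ptpn1, Ptpn2 and Ptpn6 were tested in monocyte-like cells, and 2 were lower and 1 higher at 12 months and 4 lower and 0 higher at 20 months, against those same shares. Socs1, a feedback inhibitor of the kinases, stood at 90.5, 59.6 and 69.3 CPM there.

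Early response genes (Fos, Jun, Egr and others), which rise when cells are handled, also moved between libraries. In the classes below, most went opposite to the members at 12 months and in the same direction at 20 months. In macrophage-like cells 11 of 11 tested were higher at 12 months (median log2 0.37), against 20.7% of genes, and 9 of 11 lower at 20 months (-0.30), against 34.6%. In monocyte-like cells 9 of 11 were higher at 12 and 8 lower at 20 months, against 27.2% and 22.1% of genes. In NK-like cells 9 of 11 were higher and then 8 lower, against 17.8% and 32.5%. The summed macrophage markers in CD8 T-like cells also moved, from 807 to 1055 and 1521 CPM. Their part in the age values of the members was not tested.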

How the data were processed

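Live CD45+ cells were profiled with PIP-seq, a droplet method that reads 3' ends, in 3 libraries, 1 per age. The authors deposited raw counts per gene and cell, made with STAR 2.7.10a on GRCm38 per the submitters' processing notes, and other upstream steps are not given in the sources used here. The deposited counts were used as they are. Cells held 3555 counts or more; those with over 15% mitochondrial counts and the 6% with the highest Scrublet scores per library were removed, since Scrublet's own threshold called 1.29%, 1.30% and 0.838% of cells. Cells were clustered with scanpy 1.11.5 (2000 variable genes, 30 components, Leiden resolution 1.0) without the interferon genes, and named from marker lists. The members, lists and markers were chosen with earlier results of these data known, and the scoring rule for names and 2 alternatives for age were chosen after seeing the data. Markers themselves entered the clustering.

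Counts were summed per class and library (classes with at least 20 cells). Class contrasts used edgeR 4.0.16 with the library as a term (DESeq2 1.42.0 as an alternative), checked on simulated data. Age ratios were taken for genes at 20 CPM or more in either library. Named are the 5 members with most counts and the 5 lowest and highest age ratios in each large class, and the 5 largest differences in each direction of each class contrast; single values named beyond these were chosen after they were seen. The 10 genes most like the summed members were ranked by Pearson's r of log2 CPM. The libraries are the replicates of a class contrast, and where mice were pooled p-values measure only the spread between these libraries.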

Additional observations from a re-analysis of the deposited data

Results flagged for a closer look

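In 5 cases a member was higher than at 4 months in a class while it was lower in other classes, each with its interval clear of 0. Ifit3b stood at a log2 ratio of 0.093 in NK-like cells at 12 months and was lower in macrophage-like, monocyte-like and CD8 T-like cells. Ifi44 stood at 0.23 in CD8 T-like cells at 12 months and was lower in macrophage-like, monocyte-like and NK-like cells. Ifit1bl1 stood at 0.11 in CD8 T-like cells at 20 months and was lower in the other 3 large classes. Oas2 (0.18) and Parp14 (0.084) were higher in CD8 T-like cells at 20 months and lower in monocyte-like cells. The difference between classes was not tested in these cases, since each age has 1 library. Such cases were not counted over all genes, many of which the interval also called in either direction. The 5 are therefore not read as a trait of the members. Ifit3b and Ifit1bl1 share part of the letters of their 3' end with transcripts of other genes.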

How the results depend on the processing

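All 76 alternative values of the summed age ratios in the 4 large classes lay below 0, and 55 of them differed from the reported value by more than counting error. With the members kept in the clustering the ratios at 12 and 20 months were -0.20 and -0.24 in macrophage-like, -0.28 and -0.28 in monocyte-like and -0.22 and -0.21 in CD8 T-like cells. At Leiden resolution 2.0 they were -0.20 and -0.27 in macrophage-like, -0.36 and -0.40 in monocyte-like, -0.18 and -0.26 in CD8 T-like and, at 20 months, -0.32 in NK-like cells. With no doublets removed they were -0.21 and -0.27 in macrophage-like, -0.36 and -0.38 in monocyte-like, -0.25 and -0.30 in CD8 T-like and, at 20 months, -0.29 in NK-like cells. With cells of 5000 counts or more they were -0.21 and -0.26 in macrophage-like, -0.36 (12 months) in monocyte-like, -0.12 and -0.11 in CD8 T-like and -0.15 (12 months) in NK-like cells. With the median of all genes set to 0 they were -0.20 and -0.24 in macrophage-like, -0.38 and -0.37 in monocyte-like, -0.23 and -0.16 in CD8 T-like and -0.15 and -0.23 in NK-like cells. Without Isg15 they were -0.22 and -0.28 in macrophage-like cells. As a median over members they were -0.20 and -0.25 in macrophage-like, -0.31 and -0.30 in monocyte-like and, at 12 months, -0.27 in CD8 T-like cells. Without genes specific to a library in the clustering they were -0.23 in macrophage-like and -0.37 in monocyte-like cells at 12 months, and -0.27 in CD8 T-like and -0.33 in NK-like cells at 20 months. Alternatives chosen after seeing the data gave, without clusters mostly of 1 library, -0.29 in macrophage-like and -0.48 in CD8 T-like cells at 12 months, and, as the median over clusters, which counts small and large clusters alike, -0.18 and -0.15 in macrophage-like, -0.34 and -0.40 in monocyte-like, -0.22 and -0.21 in CD8 T-like and -0.13 and -0.10 in NK-like cells. The cause of these moves was not tested.

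Of the alternative counts of the class contrasts 27 moved and 107 stayed within 1.5 times. The shares over all genes also moved with the setting and are not given beside each count below. These counts are therefore not read as a trait of the members. Without the library term, which is the fit with no pairing of classes by library (no replicate block), the members called were 1 lower in monocyte-like over macrophage-like, 0 lower in macrophage-like over CD8 T-like, 2 higher and 15 lower in NK-like over CD8 T-like, 7 higher and 0 lower in regulatory T-like over CD8 T-like, and 3 higher and 2 lower in type 2 dendritic-like over macrophage-like cells. With the members kept in the clustering they were 0 lower, 5 lower and, for type 2 dendritic-like over macrophage-like, 24 higher, and at resolution 2.0 monocyte-like over macrophage-like had 1 lower, with no type 2 dendritic-like class left to compare. DESeq2 called 3 higher in NK-like over CD8 T-like, 6 higher in type 2 dendritic-like over macrophage-like and 1 higher in mature dendritic-like over type 2 dendritic-like cells. With no filter on low counts, 8 were lower in regulatory T-like over CD8 T-like and 8 higher in type 2 dendritic-like over macrophage-like cells. Leaving out each library in turn gave 1 to 2 lower members in monocyte-like over macrophage-like and 1 to 1 in macrophage-like over CD8 T-like, 3 to 6 higher in NK-like over CD8 T-like, 11 to 16 higher and 2 to 4 lower in regulatory T-like over CD8 T-like, and 4 to 19 higher in type 2 dendritic-like over macrophage-like cells. The summed level in monocyte-like cells was 26580.2 CPM with the members kept in the clustering, and the promoter core was present in 25.8% of members on the gene strand alone.

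Each age has 1 library, so no setting gives an error between animals. Counting error is small beside what libraries can differ by, and depth limits the plasmacytoid, mature and type 1 dendritic-like and gamma-delta T-like classes. No paired analysis of age was possible because no age has a second library.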

Other observations

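Outside the members, the genes whose level ran most like the summed members over 41 sums of a class and library were Daxx (Pearson's r = 0.88), a nuclear chaperone of histones, Myd88 (0.86), the adaptor of Toll-like receptors, Sdcbp (0.86), Lgals9 (0.86), which encodes galectin-9, and Rnpep (0.85), out of 6593 genes ranked. Slc22a14, Morrbid, Ogfr, Tgm2 and Tor1aip1 followed (0.85 to 0.83). Daxx, Lgals9 and Ogfr were on the list of further induced genes. The sums share libraries and depth, so r is a description. The members themselves had r from 0.27 (Ifi44) to 0.93 (Rsad2) with the sum that holds them, with a median of 0.74.

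Rare classes gave values with few cells. Fibroblast-like cells (50, 31 and 46 cells) stood at 12852, 11167 and 8669 CPM of summed members at 4, 12 and 20 months, and B-like cells (24, 26 and 22 cells) at 7457, 5965 and 8172 CPM. Neutrophil-like cells (9, 11 and 5 cells) stood at 30002 (4 months), 9752 and 6251 CPM.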
